A study of Mus musculus with 4 samples.

Results

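Ependymal cells form the ciliated epithelium that lines the brain ventricles. They carry tufts of motile cilia whose beat moves cerebrospinal fluid along the ventricle wall, and the ciliary shaft, the axoneme, is built from microtubule doublets, dynein motors, radial spokes and a central pair. The transcription factor Foxj1, acting with RFX factors, switches on the genes of this structure, and intraflagellar transport carries its parts along the cilium. The same cells take part in the exchange between ventricular fluid and tissue, and they stand beside choroid plexus epithelium, astrocytes and tanycytes.

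The ependymal barcodes were picked from single-cell RNA libraries of glia-enriched brain suspensions. A barcode was kept with at least 1000 UMIs (counted RNA molecules), at least 500 genes and at most 20% of its UMIs from mitochondrial genes. It was called ependymal if at least 4 of the 7 genes Ccdc153, Tmem212, Dynlrb2, Foxj1, Fam183b, Rsph1 and Ak7 had a UMI, if the choroid plexus genes Folr1, Kl and Kcnj13 together had at most 1 UMI, and if C1qa, Ctss and Cldn5, genes of microglia and endothelium, together had at most 3. The rule found 500 barcodes among 60717 within these limits, out of 74993 deposited. The mice were male and carried human APOE in place of the mouse gene, either the APOE3 or the APOE4 allele on both chromosomes. They received lipopolysaccharide (LPS, a bacterial cell wall component that starts an inflammatory response) at 5 mg/kg by intraperitoneal injection, with brains taken 24 h later, or NaCl, whose dose and time the labels do not give. There were 4 libraries, APOE4 LPS, APOE4 NaCl, APOE3 LPS and APOE3 NaCl, each made from the pooled brain tissue of 3 mice with no map from barcode to mouse.

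Each group was thus 1 library, so no difference between groups could be tested against the spread between mice, and no p-value is given. Differences are described by their size, and every 95% interval (exact, from the binomial distribution) covers counting error only. Libraries held 14122 to 29361 barcodes and 73288965 to 114378032 UMIs. APOE4 LPS stood apart: 61.9% of its barcodes passed the limits, against 92.6% to 93.7% in the other 3 libraries. Between 61 and 140 barcode sequences occurred in both libraries of a pair, and no ependymal barcode was ependymal in more than 1 library.

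The ependymal rule gave 132 barcodes in APOE4 LPS, 97 in APOE4 NaCl, 109 in APOE3 LPS and 162 in APOE3 NaCl. Their share of barcodes was 0.726% in APOE4 LPS (0.608 to 0.860) and 0.742% in APOE4 NaCl (0.602 to 0.905). It was 0.724% in APOE3 LPS (0.595 to 0.872) and 1.12% in APOE3 NaCl (0.959 to 1.31, Clopper-Pearson). APOE3 NaCl had the highest share, and the intervals of the other 3 overlapped. A share in a dissociated, glia-enriched suspension is not a share of brain tissue. With every barcode thinned to 2000 UMIs the shares were 1.01% in APOE4 LPS, 1.06% in APOE4 NaCl, 1.08% in APOE3 LPS and 1.54% in APOE3 NaCl. Thinning left out 8049 barcodes of APOE4 LPS, 1421 of APOE4 NaCl, 1189 of APOE3 LPS and 1646 of APOE3 NaCl. The choroid genes removed 71, 75, 87 and 123 barcodes with 4 markers in APOE4 LPS, APOE4 NaCl, APOE3 LPS and APOE3 NaCl. The microglial and endothelial genes removed 116 in APOE4 LPS, against 7 in APOE4 NaCl, and 11 in APOE3 LPS, against 13 in APOE3 NaCl.

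The ependymal barcodes held 703316 UMIs in APOE4 LPS, 798271 in APOE4 NaCl, 948269 in APOE3 LPS and 1235778 in APOE3 NaCl. The median barcode had 3127 UMIs in APOE4 LPS, 5737 in APOE4 NaCl, 6283 in APOE3 LPS and 5508.5 in APOE3 NaCl. Levels below are CPM, the UMIs summed over a library's ependymal barcodes and scaled to 1 common total, so that 1 UMI was worth 0.809 to 1.42 CPM. A gene at 0 in a library could still have held up to 3 counts, which is 2.43 to 4.27 CPM. The single deepest barcode gave 4.91% of the UMIs in APOE4 LPS, 7.73% in APOE4 NaCl, 4.77% in APOE3 LPS and 3.43% in APOE3 NaCl.

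The cells carried the markers they were chosen by, which is a description and no support for the label. Tmem212 had a UMI in 96.2% of ependymal barcodes of APOE4 LPS, 95.9% of APOE4 NaCl, 98.2% of APOE3 LPS and 96.3% of APOE3 NaCl. Ccdc153, a coiled-coil protein of ciliated cells, had one in 86.4%, 99.0%, 98.2% and 94.4% of the same libraries. All 7 markers were found in 48 of 132 barcodes in APOE4 LPS, against 57 of 97 in APOE4 NaCl, and in 80 of 109 barcodes in APOE3 LPS, against 93 of 162 in APOE3 NaCl. The APOE4 LPS members thus met the rule with fewer markers than those of the other libraries, and they were the shallowest. At the edge of the rule, 33, 8, 4 and 20 barcodes had 4 markers and 36, 10, 10 and 16 had 3, in APOE4 LPS, APOE4 NaCl, APOE3 LPS and APOE3 NaCl. Those with 4 markers had a median of 1563, 2497, 3237 and 2331.5 UMIs in these libraries, and those with 3 markers 1353.5, 2750, 2256 and 1688.5 UMIs.

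**Figure D1:**
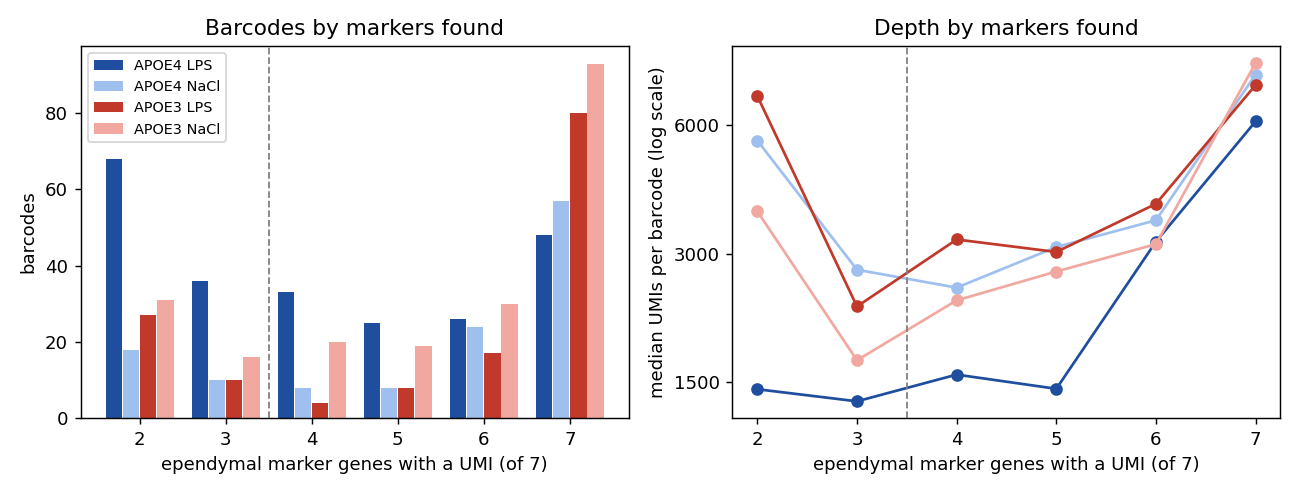
Left, number of barcodes within the limits (y axis) by how many of the 7 ependymal marker genes had a UMI (x axis), for the 4 libraries; right, their median UMIs on a log scale. Barcodes right of the dashed line reach the 4 markers of the rule; with 7 markers there were 48 in APOE4 LPS, 57 in APOE4 NaCl, 80 in APOE3 LPS and 93 in APOE3 NaCl, and APOE4 LPS barcodes with 3 to 5 markers were the shallowest.

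Genes outside the rule set these barcodes apart from the other cells of the same libraries. Of 1705 genes with at least 100 CPM in all 4 ependymal sums, 85 were at least 10-fold above the highest of 8 other marker-defined classes in every library. Sntn, which encodes sentan, a protein of the tips of motile cilia, had 385 CPM in APOE4 LPS, 362 in APOE4 NaCl, 426 in APOE3 LPS and 275 in APOE3 NaCl. Its lowest ratio over another class was 310-fold. The axonemal dynein heavy chain Dnah12 had 688, 651, 945 and 732 CPM in the same order of libraries, and its lowest ratio was 168-fold. Dnah5, another heavy chain, had 266, 405, 404 and 407 CPM, and its lowest ratio was 105-fold. Gm47888, Ttc29, Dthd1, Gm10714, Iqca, Frmpd2, Fbxl13, Unc5cl and Zfp474 complete the 12 most selective genes. Since these barcodes were selected on ciliary genes, this list describes them and tests nothing.

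The promoters of 3 marker genes, Ccdc153, Dynlrb2 and Fam183b, hold the same short run of letters, and those of Tmem212 and Ak7 do not. RFX factors bind X-box elements, one part of which reads GTTGCC, and the windows below show where these letters lie upstream of the RefSeq transcription start (GRCm38.p6) in the 3 marker genes that hold them, with the match in capitals and each sequence written on the gene's strand. Ccdc153 is shown at chr9:44240495-44240560 (+), with the match 147 to 152 bases before its start, and Dynlrb2, a dynein light chain gene, at chr8:116504934-116504999 (+), 46 to 51 bases before. Fam183b holds a pair of matches, at chr11:58801992-58802057 (-) and chr11:58801961-58802006 (-), 62 to 67 and 11 to 16 bases before.
Ccdc153: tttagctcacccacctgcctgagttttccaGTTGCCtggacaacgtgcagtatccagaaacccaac
Dynlrb2: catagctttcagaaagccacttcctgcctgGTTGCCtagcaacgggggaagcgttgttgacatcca
Fam183b, far match: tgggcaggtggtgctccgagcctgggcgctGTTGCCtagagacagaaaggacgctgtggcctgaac
Fam183b, near match: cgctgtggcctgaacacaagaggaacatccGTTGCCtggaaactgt
Counted on both strands over 250 bases before the start, GTTGCC occurred in 3 of the 5 marker genes with a sequence (60%). The axoneme lists were counted together with the marker genes, so that these 3 are counted again. There 29 of 70 genes had it (41.4%), and 6 of 21 intraflagellar transport genes had it (28.6%). It occurred in 1045 of 7494 genes measured in these barcodes (13.9%) and in 3195 of 27025 genes in all (11.8%). Among other sets, 6 of 26 interferon-stimulated genes had it (23.1%). So did 7 of 52 genes at least 2-fold higher with LPS in both alleles (13.5%) and 3 of 44 lower in both (6.82%). The letters are a description of these windows and not evidence of binding.

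RNA assigned to other cell types was present, and for microglial, astrocyte and choroid plexus markers its level was highest in APOE4 LPS. Oligodendrocyte, endothelial and mural markers were highest in APOE4 NaCl, at 3243, 1541 and 401 CPM, and tanycyte markers in APOE3 NaCl, at 623 CPM. Summed over 12 microglial markers, the ependymal level was 508 CPM in APOE4 LPS, against 103 CPM in APOE4 NaCl, and 168 CPM in APOE3 LPS, against 133 CPM in APOE3 NaCl. These sums are 2.56%, 0.315%, 0.603% and 0.423% of the level in the microglial class of the same libraries, and Trem2 alone was at 0, in APOE3 LPS. The 10 astrocyte markers, some of which ependymal cells also express (Gfap among them), summed to 3290, 2116, 2259 and 1950 CPM in APOE4 LPS, APOE4 NaCl, APOE3 LPS and APOE3 NaCl. The 10 choroid plexus markers summed to 1329 CPM in APOE4 LPS, against 474 CPM in APOE4 NaCl, and to 419 CPM in APOE3 LPS, against 511 CPM in APOE3 NaCl. At least 3 of 6 markers of another class were found in 87 of 132 ependymal barcodes of APOE4 LPS, 41 of 97 of APOE4 NaCl, 67 of 109 of APOE3 LPS and 58 of 162 of APOE3 NaCl. The class was most often astrocytic, in 51, 30, 59 and 50 barcodes. Scrublet called 16 ependymal barcodes doublets in APOE4 NaCl, 11 in APOE3 LPS and 25 in APOE3 NaCl. It called 0 of all 18182 barcodes in APOE4 LPS and so did not work there, and no called doublet was removed except in an alternative.

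Within APOE4 LPS the microglial and choroid plexus signals were higher in the barcodes that met the rule narrowly. Astrocyte markers differed less, at 4313 CPM with 4 or 5 ependymal markers and 3036 CPM with 6 or 7. The 58 barcodes with 4 or 5 ependymal markers had 1638 CPM of the microglial list and 3341 CPM of Ttr, the transthyretin of choroid plexus, and the 74 barcodes with 6 or 7 markers had 227 and 426 CPM. Lcn2, the siderophore-binding lipocalin-2, had 980 CPM in the first of these sets and 149 CPM in the second. Serpina3n, a secreted inhibitor of serine proteases, had 2826 CPM with 4 or 5 markers and 2749 CPM with 6 or 7, so its summed level was close in both sets. Per barcode it was not, among the barcodes with at least 2000 UMIs, thinned to that number. There Serpina3n had a median of 8.0 UMIs in 8 of the 33 barcodes with 4 markers and 8.5 in 8 of the 25 with 5. It had a median of 1.0 in 19 of the 26 with 6 and 0.5 in 46 of the 48 with 7. The shallower barcodes, which were most of those with 4 or 5 markers, are not in these medians. Gene lists, counts of genes and a set of the named genes were therefore also computed in the barcodes with at least 6 of the 7 markers. They were also computed without the barcodes that had 3 markers of another class, which left 45 in APOE4 LPS, 56 in APOE4 NaCl, 42 in APOE3 LPS and 104 in APOE3 NaCl. The thinned per-barcode values below, the overlaps between comparisons and their correlations were not recomputed in these ways.

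**Figure D2:**
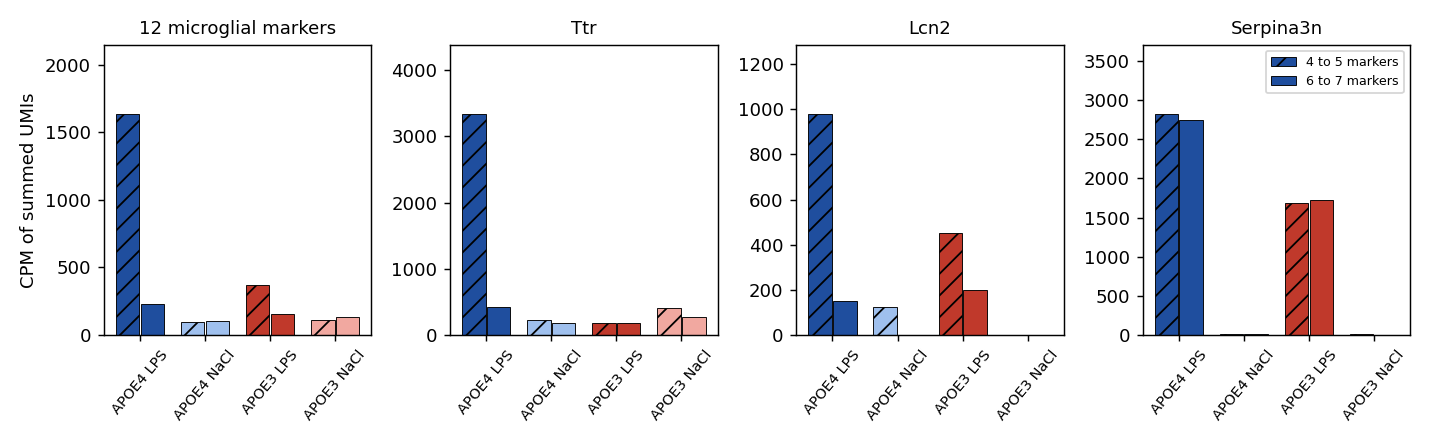
CPM of summed UMIs (y axis) in ependymal barcodes with 4 to 5 markers (hatched bars) and with 6 to 7 markers (plain bars) in the 4 libraries. In APOE4 LPS the microglial list, Ttr and Lcn2 stood at 1638, 3341 and 980 CPM with 4 to 5 markers and at 227, 426 and 149 CPM with 6 to 7, while Serpina3n stood at 2826 and 2749 CPM.

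The first comparison was LPS against NaCl within each allele, which asks what ependymal cells express 24 h after a systemic inflammatory stimulus. The gene with the largest difference in both alleles by the bound of its interval nearest to 1 was Serpina3n (ENSMUSG00000021091). It had 2764 CPM in APOE4 LPS and 13.8 CPM in APOE4 NaCl, and 1723 CPM in APOE3 LPS and 7.28 CPM in APOE3 NaCl. Both LPS libraries were far above both NaCl libraries, where the gene had 11 UMIs in APOE4 and 9 in APOE3. The LPS level was 201-fold higher in APOE4 (112 to 402) and 237-fold higher in APOE3 (124 to 518). It reached 452% of the highest other class in APOE4 LPS and 521% in APOE3 LPS (the oligodendrocyte class in both), and astrocytes had 572 CPM and 260 CPM there. With at least 6 markers the levels were 2749 CPM in APOE4 LPS and 13.8 CPM in APOE4 NaCl, and 1725 CPM in APOE3 LPS and 6.61 CPM in APOE3 NaCl. Without the barcodes that had markers of another class they were 1935 and 3.83 CPM in APOE4 LPS and NaCl, and 1870 and 7.20 CPM in APOE3 LPS and NaCl. Serpina3n belongs to a cluster of similar serpin genes, so reads may have been split among copies; the same holds for C4b, the metallothioneins and the H2 genes named below.

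Per barcode, thinned to 2000 UMIs, Serpina3n had a UMI in 59.3% of 81 ependymal barcodes in APOE4 LPS, 1.14% of 88 in APOE4 NaCl, 84.9% of 106 in APOE3 LPS and 2.76% of 145 in APOE3 NaCl. Unthinned shares were 68.9%, 8.25%, 93.6% and 4.32%. In microglia, which should lack this gene, unthinned shares were 9.83%, 0.211%, 0.883% and 0.187%, at median depths of 1997.5, 4453, 7272 and 4176.5 UMIs. The distributions of the LPS libraries had different shapes. The thinned median was 1 UMI in APOE4 LPS, with an upper quartile of 8 and a highest value of 34, and 3 UMIs in APOE3 LPS, with an upper quartile of 5 and a highest value of 14. At least 10 UMIs were found in 16 barcodes of APOE4 LPS (19.8%) and 3 of APOE3 LPS (2.83%), and none in 33 barcodes of APOE4 LPS and 16 of APOE3 LPS. Serpina3n was thus spread over most APOE3 LPS ependymal barcodes and was more uneven in APOE4 LPS, with more barcodes at both ends.

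**Figure D3:**
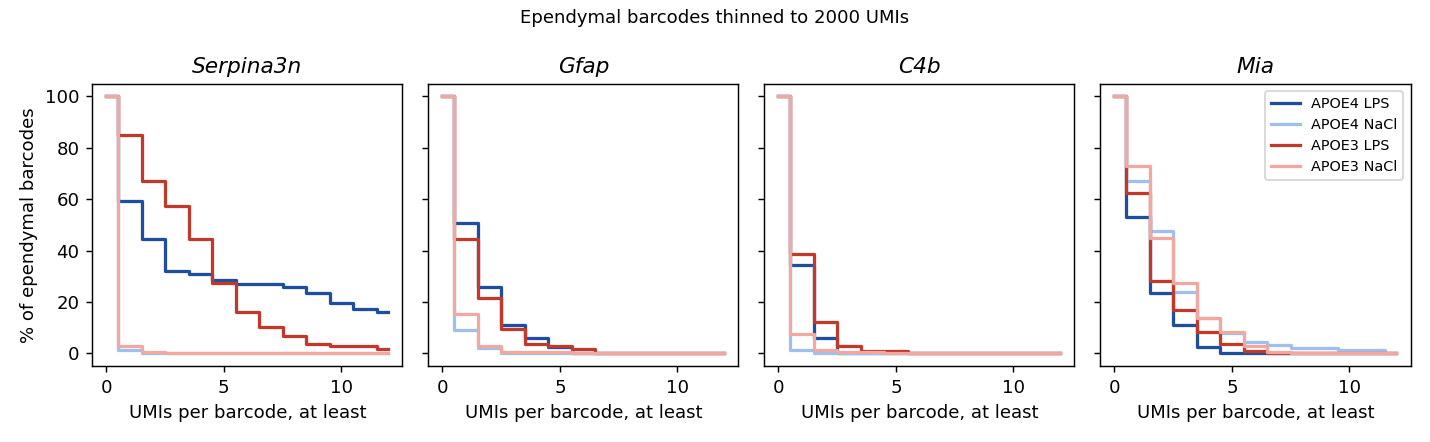
Share of ependymal barcodes (y axis, percent) with at least the number of UMIs on the x axis, after thinning each barcode to 2000 UMIs, for 4 genes and 4 libraries. For Serpina3n, 59.3% of APOE4 LPS barcodes and 84.9% of APOE3 LPS barcodes had 1 UMI or more, against 1.14% in APOE4 NaCl and 2.76% in APOE3 NaCl, and the APOE4 LPS curve crosses above the APOE3 LPS curve at high counts.

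Gfap varied with Serpina3n from barcode to barcode in both LPS libraries, and C3, Mt2 and dynein genes did so in APOE4 LPS. The cuts at 1 and 5 thinned UMIs used here were chosen after its values were seen, and 3 barcodes of APOE4 LPS and 30 of APOE3 LPS had 4 or 5 UMIs and lie near the second. Gfap, the intermediate filament of astrocytes, had a UMI in 30.3% of the 33 APOE4 LPS barcodes without Serpina3n, 36% of the 25 with 1 to 4 UMIs and 95.7% of the 23 with 5 or more. In APOE3 LPS the shares were 25% of 16, 31.1% of 61 and 82.8% of 29. The complement component C3 had a UMI in 15.2%, 20% and 65.2% of these sets in APOE4 LPS. Mt2, a metal-binding metallothionein, averaged 4.03, 5.28 and 12.4 UMIs there. Axonemal dynein genes averaged 9.85, 8.48 and 5.74 UMIs per barcode in the 3 sets of APOE4 LPS, and Tmem212 had a UMI in 93.9%, 96.0% and 69.6%. In APOE3 LPS the same sets had C3 in 25%, 39.3% and 37.9% of barcodes, averaged 1.81, 2.59 and 2.24 UMIs of Mt2, and averaged 10.2, 11.2 and 10.2 UMIs of dynein genes, with no steady order. The APOE4 LPS barcodes with most Serpina3n thus had more Gfap, C3 and Mt2 and fewer dynein UMIs, and they were the deepest before thinning, with medians of 4069, 4102 and 8111 UMIs. Summed astrocyte markers averaged 4.73, 3.92 and 8.39 UMIs in the same sets, and microglial markers 0.970, 0.840 and 0.217. Choroid plexus markers averaged 1.15, 1.32 and 2.96 UMIs. The astrocyte list holds Gfap, which itself averaged 0.303, 0.44 and 2.48 UMIs, so the list is not independent of Gfap. In APOE3 LPS astrocyte markers averaged 2.88 UMIs without Serpina3n and 5.45 with 5 or more, and choroid plexus markers 1.19 and 0.724. In APOE4 LPS the astrocyte and choroid plexus lists were thus highest in the set with most Serpina3n, and the microglial list was lowest. The part of other cells in these values was not tested.

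Several other acute-phase and glial reactivity genes were higher with LPS in both alleles. Gfap had 711 CPM in APOE4 LPS and 66.4 CPM in APOE4 NaCl, and 426 CPM in APOE3 LPS and 85.0 CPM in APOE3 NaCl. It was 10.7-fold higher in APOE4 (8.06 to 14.5) and 5.01-fold higher in APOE3 (4.04 to 6.28), and its level was 194% and 160% of that in LPS astrocytes, the highest other class. Without barcodes holding markers of another class, the APOE4 ratio of Gfap was 5.90 and the APOE3 ratio 5.55. Vim, the vimentin filament that ependymal cells express at rest, had 1587 CPM in APOE4 LPS and 750 CPM in APOE4 NaCl, and 1273 CPM in APOE3 LPS and 625 CPM in APOE3 NaCl. Its ratios of 2.11 and 2.04 were close in the alleles. Matn2, the extracellular matrix protein matrilin-2, had 138 CPM in APOE4 LPS and 26.3 CPM in APOE4 NaCl, and 218 CPM in APOE3 LPS and 30.8 CPM in APOE3 NaCl. That was 5.24-fold higher in APOE4 (3.25 to 8.85) and 7.10-fold higher in APOE3 (5.00 to 10.3), at 476% and 483% of the highest other class with LPS (choroid plexus in both). Chil1, a secreted chitinase-like protein, had 360 CPM in APOE4 LPS and 32.6 CPM in APOE4 NaCl, and 141 CPM in APOE3 LPS and 21.0 CPM in APOE3 NaCl, but ependymal levels were 23.6% and 16.6% of the highest other class in the LPS libraries.

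Complement genes were among them. C3, the central component of the cascade, had 422 CPM in APOE4 LPS and 56.4 CPM in APOE4 NaCl, and 308 CPM in APOE3 LPS and 82.5 CPM in APOE3 NaCl. It was 7.49-fold higher in APOE4 (5.46 to 10.5) and 3.73-fold higher in APOE3 (2.97 to 4.72), and its LPS levels were 188% and 165% of the highest other class, which had 225 CPM and 187 CPM. C4b, a component of the classical pathway, had 195 CPM in APOE4 LPS and 18.8 CPM in APOE4 NaCl, and 263 CPM in APOE3 LPS and 38 CPM in APOE3 NaCl. The C4b ratios were 10.4 (6.07 to 19.0) and 6.90 (5.04 to 9.64), and 11.5 and 10.8 without barcodes holding markers of another class. Serping1, which encodes the C1 inhibitor, had 51.2 CPM in APOE4 LPS and 11.3 CPM in APOE4 NaCl, and 74.9 CPM in APOE3 LPS and 11.3 CPM in APOE3 NaCl. C1ra, a protease of the C1 complex, had 38.4 CPM in APOE4 LPS and 15.8 CPM in APOE3 LPS and no UMI in either NaCl library, which makes it at least 10.2-fold and 6.52-fold higher against a floor of 3 counts per library. The complement list had 19 genes. Among 7 measured in each comparison (at least 20 UMIs in 1 of its libraries), 4 were at least 2-fold higher in APOE4 and 3 in APOE3, and 0 were lower. The medians of the measured members were 2.09 and 0.38 on the log2(CPM + 1) scale, on which every 2-fold count here was made. In barcodes with at least 6 markers 3 of 6 were higher in APOE4, with a median of 1.0, and 3 of 7 in APOE3, with a median of 0.34; without barcodes holding markers of another class 2 of 4 were higher in each, with medians of 1.24 and 1.01. Over all genes, 278 of 7802 measured were at least 2-fold higher in APOE4 (3.56%) and 369 lower (4.73%); 135 of 9286 were higher in APOE3 (1.45%) and 333 lower (3.59%). The median of all genes was -0.09 in each allele. With TMM scaling 331 genes were higher and 290 lower in APOE4, which moves the share of higher genes among those counted to 53.3%.

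The NF-kB and acute-phase list, 34 genes, had 13 of 15 measured members higher and 0 lower in APOE4, with a median of 2.93, and 7 of 14 higher and 0 lower in APOE3, with a median of 1.10. Over all genes 3.56% were higher in APOE4 and 1.45% in APOE3. With at least 6 markers the counts of the list were 12 of 14 and 8 of 14. Without barcodes holding markers of another class 4 of 8 were higher and 1 lower in APOE4, with a median of 0.91, and 1 of 9 was higher in APOE3, with a median of 0.34. Steap4, a metalloreductase induced in inflammation, had 72.5 CPM in APOE4 LPS and 29.5 CPM in APOE3 LPS and no UMI in either NaCl library, at least 19.3-fold and 12.2-fold higher. Socs3, the feedback inhibitor of STAT3 signalling, had 64.0 CPM in APOE4 LPS and 7.52 CPM in APOE4 NaCl, and 35.9 CPM in APOE3 LPS and 2.43 CPM in APOE3 NaCl. Nfkbia, the inhibitor that closes the NF-kB response, had 249 CPM in APOE4 LPS and 61.4 CPM in APOE4 NaCl, and 129 CPM in APOE3 LPS and 50.2 CPM in APOE3 NaCl. Both feedback genes were thus higher with LPS in each allele, but their ependymal level was only 7.09% to 27.7% of that in the highest other class of the same LPS library. Stat3 itself had 233 CPM in APOE4 LPS and 50.1 CPM in APOE4 NaCl, 4.65-fold higher (3.28 to 6.75), and 101 CPM in APOE3 LPS and 56.6 CPM in APOE3 NaCl, a ratio of 1.79 (1.30 to 2.47).

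Lcn2 and Saa3, acute-phase genes with very high levels elsewhere, need the background beside them. Lcn2 had 314 CPM in APOE4 LPS and 11.3 CPM in APOE4 NaCl, and 211 CPM in APOE3 LPS and no UMI in APOE3 NaCl. These LPS levels were 2.48% and 1.99% of the highest other class, and 1 barcode held 51.0% of the UMIs in APOE3 LPS and 25.8% in APOE4 LPS. Thinned, Lcn2 had a UMI in 22.2% of ependymal barcodes and 36.6% of microglia in APOE4 LPS, and in 9.43% and 8.34% in APOE3 LPS. The ependymal share was thus below that of microglia in APOE4 LPS and close to it in APOE3 LPS, and the part of free RNA in it was not tested. Saa3 had 283 CPM in APOE4 LPS, 3.24% of its highest class, and none in APOE4 NaCl.

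Steap4 and Socs3 carry the letters of a STAT-type site, TTCNNNGAA, near their starts. They are shown because both genes were higher with LPS in each allele, at chr5:7960326-7960394 (+) for Steap4 and chr11:117969482-117969550 (-) for Socs3 (RefSeq, GRCm38.p6), with the match in capitals 108 to 116 and 146 to 154 bases before the start.
Steap4: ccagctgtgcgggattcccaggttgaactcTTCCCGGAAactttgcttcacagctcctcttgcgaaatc
Socs3: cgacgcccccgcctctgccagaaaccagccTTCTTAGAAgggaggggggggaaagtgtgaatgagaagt
The pattern reads alike on both strands. It occurred in the 250 bases before 9 of 52 genes that were at least 2-fold higher with LPS in both alleles and had a sequence (17.3%), in 3 of 44 that were lower in both (6.82%), in 506 of 7494 measured genes (6.75%) and in 2197 of 27025 genes in all (8.13%). It was also in 4 of 26 interferon-stimulated genes (15.4%) and 3 of 21 intraflagellar transport genes (14.3%). Of the axoneme lists together with the marker genes, 3 of 70 genes had it (4.29%). The pattern was not in the windows of Serpina3n, Gfap or C3. The windows are descriptions and show no binding.

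**Figure D4:**
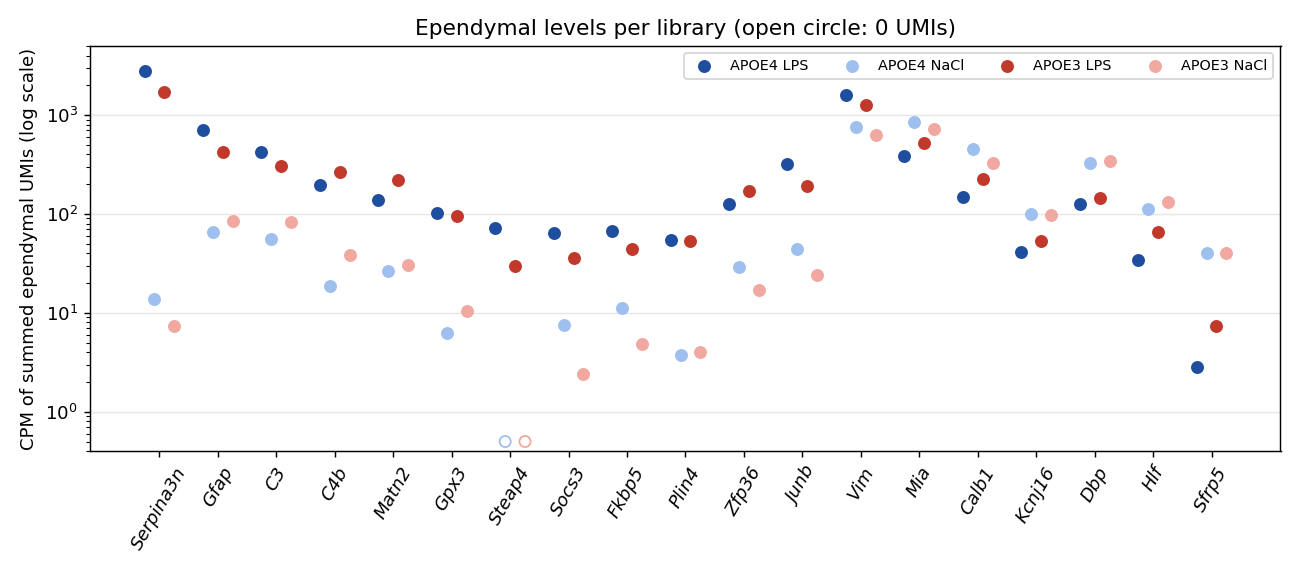
CPM of summed ependymal UMIs (y axis, log scale) of 19 genes in the 4 libraries, each point being 1 library; an open circle marks 0 UMIs. For the 13 genes from Serpina3n to Vim both LPS points lie above both NaCl points, and for the 6 from Mia to Sfrp5 both lie below.

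Immediate early genes, which stress or dissociation of tissue can also raise, were higher with LPS as a list. Of 23 genes, 14 of 19 measured were at least 2-fold higher in APOE4 (median 1.70) and 11 of 17 in APOE3 (median 1.47), and 0 were lower. Over all genes 3.56% were higher in APOE4 and 1.45% in APOE3. With at least 6 markers the counts of the list were the same, with medians of 1.92 and 1.65. Fos had 711 CPM in APOE4 LPS and 190 CPM in APOE4 NaCl, and 717 CPM in APOE3 LPS and 150 CPM in APOE3 NaCl. Junb had 317 and 43.8 CPM in APOE4 LPS and NaCl, and 191 and 24.3 CPM in APOE3 LPS and NaCl. Zfp36, which encodes the mRNA-destabilising protein tristetraprolin, had 127 CPM in APOE4 LPS and 28.8 CPM in APOE4 NaCl, and 170 CPM in APOE3 LPS and 17.0 CPM in APOE3 NaCl. Fos ratios were 3.73 in APOE4 and 4.79 in APOE3; without barcodes holding markers of another class they were 1.57 and 6.91, so that the 2-fold call was lost in APOE4. The list then had 1 of 5 measured genes higher in APOE4 and 6 of 10 in APOE3. Ependymal Fos was 40.7% of the highest other class in APOE4 LPS and 36% in APOE3 LPS.

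Genes that respond to glucocorticoids, the hormones released in systemic inflammation, had 11 of 19 measured members higher in APOE4 (median 1.29) and 8 of 18 in APOE3 (median 0.96), with 0 lower, from a list of 23. Over all genes 3.56% were higher in APOE4 and 1.45% in APOE3. With at least 6 markers 9 of 18 were higher in each allele, with medians of 0.98 and 0.96. Without barcodes holding markers of another class 3 of 6 were higher in APOE4 (median 0.96) and 5 of 11 in APOE3 (median 0.48). Plin4, a lipid droplet coat protein, had 54.0 CPM in APOE4 LPS and 3.76 CPM in APOE4 NaCl, and 53.8 CPM in APOE3 LPS and 4.05 CPM in APOE3 NaCl. It was 14.4-fold higher in APOE4 (4.56 to 72.8) and 13.3-fold higher in APOE3 (5.34 to 42.7), but without barcodes holding markers of another class the APOE4 ratio was 1.65, at 6.30 against 3.83 CPM. Fkbp5, a co-chaperone of the glucocorticoid receptor, had 66.8 CPM in APOE4 LPS and 11.3 CPM in APOE4 NaCl, and 44.3 CPM in APOE3 LPS and 4.86 CPM in APOE3 NaCl. Fkbp5 reached 14.0% and 10.7% of the highest other class in the LPS libraries. Gpx3, a secreted glutathione peroxidase, had 102 CPM in APOE4 LPS and 6.26 CPM in APOE4 NaCl, and 96.0 CPM in APOE3 LPS and 10.5 CPM in APOE3 NaCl, and Tmem176a, a membrane protein gene, had 129 and 18.8 CPM in APOE4 LPS and NaCl, and 146 and 17.8 CPM in APOE3 LPS and NaCl.

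Some genes of antigen presentation were higher with LPS, and the difference between the alleles in their counts was not tested. MHC class I genes, which present peptides at the cell surface, had 5 of 9 measured members higher in APOE4 (median 1.41) and 2 of 11 in APOE3 (median 0.25), from a list of 20. Over all genes 3.56% were higher in APOE4 and 1.45% in APOE3. With at least 6 markers 4 of 8 class I genes were higher in APOE4 and 2 of 10 in APOE3. Without barcodes holding markers of another class 3 of 4 and 3 of 8 were higher. Of 7 MHC class II genes 0 were measured in APOE4, and 1 was measured and lower in APOE3. B2m, the light chain of the complex, had 397 CPM in APOE4 LPS and 50.1 CPM in APOE4 NaCl, and 218 CPM in APOE3 LPS and 89.8 CPM in APOE3 NaCl. The ratios of B2m were 7.92 (5.67 to 11.3) and 2.43 (1.92 to 3.09). The heavy chain H2-K1 had 412 CPM in APOE4 LPS and 140 CPM in APOE4 NaCl, and 310 CPM in APOE3 LPS and 253 CPM in APOE3 NaCl. Beside this, the summed microglial markers were 508 CPM in APOE4 LPS, against 103 CPM in APOE4 NaCl; their part in these values was not tested. Of 36 interferon-stimulated genes, 4 of 11 measured were higher in APOE4 and 2 of 18 in APOE3, with 1 lower in APOE3. The chemokine Cxcl10 had 127 CPM in APOE4 LPS, with 1 UMI in APOE4 NaCl, a ratio of 101 (17.7 to 4034), and 29.2% of the APOE4 LPS UMIs came from 1 barcode. In APOE4 LPS Cxcl10 had 386 CPM in barcodes with 4 or 5 markers and 62.1 CPM in those with 6 or 7, and with at least 6 markers the ratio was 45.2 (7.59 to 1834). In APOE3 LPS Cxcl10 had 39.0 CPM, against 4.05 CPM in APOE3 NaCl, and 56.8% of the APOE3 LPS UMIs came from 1 barcode.

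The genes of the cilium stayed within 2-fold almost throughout. The axonemal dynein list had 16 measured genes, the radial spoke and central pair list 18 and the list of tektins and other axoneme proteins 31. In each allele 0 of these genes were 2-fold higher and 0 lower with LPS, where 8.29% of all measured genes in APOE4 and 5.04% in APOE3 were past 2-fold either way. Their medians were -0.13, -0.17 and -0.18 in APOE4 and 0.11, 0.17 and 0.10 in APOE3. Without barcodes holding markers of another class, 1 of 16 radial spoke and central pair genes was lower in APOE4. In APOE3 1 of 31 genes of the tektin list was lower. The 3 medians were then -0.30, -0.12 and -0.12 in APOE4 and 0.01, 0.16 and 0.22 in APOE3. Dnah9, a dynein heavy chain of the outer arm, had 434 CPM in APOE4 LPS and 476 CPM in APOE4 NaCl, and 623 CPM in APOE3 LPS and 503 CPM in APOE3 NaCl. Hydin, a central pair protein whose loss in mice causes hydrocephalus, had 398 and 451 CPM in APOE4 LPS and NaCl, and 602 and 528 CPM in APOE3 LPS and NaCl. Spag16, also of the central pair, had 980 and 973 CPM in APOE4 LPS and NaCl, and 1369 and 1152 CPM in APOE3 LPS and NaCl. The medians of the lists thus had opposite signs in the alleles, with sizes of 0.10 to 0.18 on the log2 scale over all ependymal barcodes. Of the intraflagellar transport list, 0 of 25 measured genes were 2-fold different in APOE4, and 1 of 26, Ttc21b, was lower in APOE3, at 8.44 CPM in APOE3 LPS and 27.5 CPM in APOE3 NaCl. Without barcodes holding markers of another class 1 of 19 transport genes was lower in APOE4, and 0 of 24 were past 2-fold in APOE3.

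The regulators of multiciliation also stayed within 2-fold almost throughout, with list medians of -0.165 in APOE4 and -0.166 in APOE3. Foxj1 had 503 CPM in APOE4 LPS and 410 CPM in APOE4 NaCl, and 501 CPM in APOE3 LPS and 464 CPM in APOE3 NaCl, but it is a gene of the rule. Rfx3, an RFX factor of ciliated cells, had 421 CPM in APOE4 LPS and 511 CPM in APOE4 NaCl, and 587 CPM in APOE3 LPS and 626 CPM in APOE3 NaCl. Myb, which acts early in multiciliated differentiation, had 165 and 174 CPM in APOE4 LPS and NaCl, and 192 and 188 CPM in APOE3 LPS and NaCl. Trp73 had 68.2, 62.6, 73.8 and 69.6 CPM in APOE4 LPS, APOE4 NaCl, APOE3 LPS and APOE3 NaCl. Of 11 measured regulators 1, Ccdc78, was 2-fold lower in APOE4, at 38.4 CPM in APOE4 LPS and 81.4 CPM in APOE4 NaCl. Over all measured genes 4.73% were lower in APOE4. In APOE3 0 regulators were past 2-fold, where 5.04% of all measured genes were past it either way. Since 4 ciliary genes had to be present for a barcode to count, a cell that lost most of its ciliary RNA would not be in these sums.

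**Figure D5:**
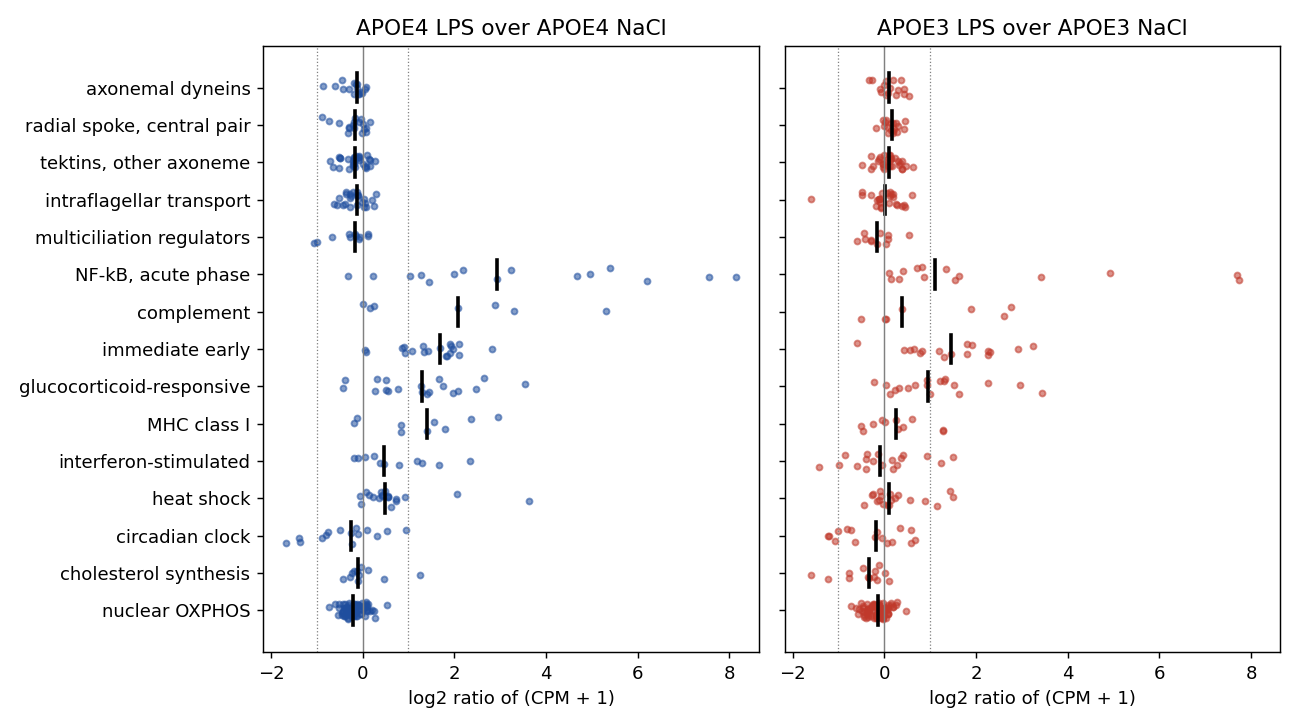
Log2 ratio of (CPM + 1), LPS over NaCl (x axis), of every measured gene of 15 lists, each point being 1 gene and each black bar a list's median, in APOE4 (left) and APOE3 (right); dotted lines mark 2-fold. The ciliary lists lie between the dotted lines, apart from Ttc21b in APOE3 and Ccdc78 in APOE4, while the NF-kB list has medians of 2.93 and 1.10.

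Among the genes at least 2-fold lower with LPS in both alleles were Dbp, Hlf and Sfrp5. Dbp, a clock-driven transcription factor, had 125 CPM in APOE4 LPS and 328 CPM in APOE4 NaCl, and 147 CPM in APOE3 LPS and 342 CPM in APOE3 NaCl. It was 2.62-fold lower in APOE4 (2.05 to 3.38) and 2.33-fold lower in APOE3 (1.92 to 2.84). Hlf, a related factor, had 34.1 CPM in APOE4 LPS and 112 CPM in APOE4 NaCl, and 65.4 CPM in APOE3 LPS and 132 CPM in APOE3 NaCl. Of the clock list of 19 genes, 3 of 15 measured were lower in APOE4 and 4 of 16 in APOE3, and 0 were higher. Over all measured genes 4.73% were lower in APOE4 and 3.59% in APOE3. With at least 6 markers 3 of 15 clock genes were lower in APOE4 and 2 of 16 in APOE3. Without barcodes holding markers of another class 0 of 9 were lower in APOE4, and in APOE3 1 of 15 was lower and 1 higher. The labels used here do not give the hour at which brains were taken. Sfrp5, a secreted antagonist of Wnt signalling, had 2.84 CPM in APOE4 LPS and 40.1 CPM in APOE4 NaCl, and 7.38 CPM in APOE3 LPS and 40.5 CPM in APOE3 NaCl. It was 14.1-fold lower in APOE4 (3.60 to 121), from 2 UMIs with LPS, and 5.48-fold lower in APOE3 (2.47 to 14.3). In APOE4 NaCl and APOE3 NaCl its ependymal level was 48.6% and 43.4% of that in astrocytes, the highest other class.

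Several surface and secreted genes of ependyma were lower with LPS in both alleles, by less than 2-fold in APOE3. Nnat, the membrane proteolipid neuronatin, had 1038 CPM in APOE4 LPS and 1870 CPM in APOE4 NaCl, and 1144 CPM in APOE3 LPS and 1750 CPM in APOE3 NaCl, 1.8-fold lower in APOE4 and 1.53-fold lower in APOE3. Mia, a small secreted protein, had 384 CPM in APOE4 LPS and 861 CPM in APOE4 NaCl, and 527 CPM in APOE3 LPS and 727 CPM in APOE3 NaCl. Calb1, the calcium-binding protein calbindin, had 148 CPM in APOE4 LPS and 450 CPM in APOE4 NaCl, and 228 CPM in APOE3 LPS and 324 CPM in APOE3 NaCl. Mia was 2.24-fold and 1.38-fold lower in APOE4 and APOE3, and Calb1 3.04-fold and 1.42-fold lower. The potassium channel subunit Kcnj16 had 41.2 CPM in APOE4 LPS and 99.0 CPM in APOE4 NaCl, and 52.7 CPM in APOE3 LPS and 98.7 CPM in APOE3 NaCl. Nppc, the precursor of C-type natriuretic peptide, had 22.8 CPM in APOE4 LPS and 87.7 CPM in APOE4 NaCl, and 42.2 CPM in APOE3 LPS and 82.5 CPM in APOE3 NaCl. Of 30 surface and fluid-facing genes, 3 of 27 measured were higher (Vim, Vcam1 and Celsr2) and 3 lower (Mia, Kcnj16 and Vangl2) in APOE4, and 1 of 28 was higher (Vim) in APOE3 and 0 lower. Over all genes 3.56% were higher and 4.73% lower in APOE4, and 1.45% higher and 3.59% lower in APOE3. Vangl2 and Celsr2 are planar polarity genes; Vangl2 had 12.8 CPM in APOE4 LPS and 38.8 CPM in APOE4 NaCl, and Celsr2 131 CPM and 42.6 CPM.

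Some large differences rested on few barcodes or stood beside differences in markers of other cells. Of the unnamed transcript 6330403K07Rik, at 65.4 CPM in APOE4 LPS and 263 CPM in APOE4 NaCl, and 93.9 CPM in APOE3 LPS and 545 CPM in APOE3 NaCl, 1 barcode held 65.2% of the APOE4 NaCl UMIs and 67.3% of the APOE3 NaCl UMIs. Lower in APOE3 LPS by the naming rule were also Vcan, Col25a1, Frzb, Dlk1, Gpr50, Rax, Penk and Npsr1. The tanycyte list, which holds Rax, Gpr50 and Vcan, summed to 290 CPM in APOE4 LPS and 326 CPM in APOE4 NaCl, and 463 CPM in APOE3 LPS and 623 CPM in APOE3 NaCl. The list also holds Scn7a, highest in APOE3 LPS, so these sums carry its allele difference given below. By gene, 5 of 8 measured members were at least 2-fold lower in APOE3, against 3.59% of all genes, and 1 of 5 in APOE4, against 4.73%. In APOE3 NaCl the tanycyte list stood at 2107 CPM in barcodes with 4 or 5 ependymal markers and 375 CPM in those with 6 or 7. With at least 6 markers 1 of 6 was lower in APOE3, and the list's median there was 0.16 instead of -1.74. Acta2, the smooth muscle actin, had 96.7 CPM in APOE4 LPS and 309 CPM in APOE4 NaCl, and 27.4 CPM in APOE3 LPS and 158 CPM in APOE3 NaCl, at 5.07% to 18.7% of the mural class. The 10 mural and fibroblast markers summed to 151 CPM in APOE4 LPS and 401 CPM in APOE4 NaCl, and 78.0 CPM in APOE3 LPS and 254 CPM in APOE3 NaCl, and their part in the Acta2 values was not tested.

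The alleles shared part of the response. Of 7672 genes measured in both LPS comparisons, which share no library, 66 were at least 2-fold higher in both, 28.3% of the 233 higher in APOE4 and 68.0% of the 97 higher in APOE3. Lower in both were 57, 16.7% of 341 in APOE4 and 37.0% of 154 in APOE3. Opposite to this, 1 gene was higher in APOE3 and lower in APOE4 and 3 were lower in APOE3 and higher in APOE4. Across 2825 genes with at least 50 UMIs in each library, Pearson's r of the log2 ratios was 0.43, as a description over genes, which are not replicates.

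The second comparison was whether the LPS difference itself differed between alleles, taken as the log2 LPS/NaCl ratio in APOE4 minus that in APOE3. It uses all 4 libraries and was not tested. Of 9416 genes, 630 had a difference of at least 1 toward APOE4 (6.69%) and 436 of at least 1 toward APOE3 (4.63%). The metallothioneins, which bind zinc and copper, stood out by abundance. Mt1 had 19168 CPM in APOE4 LPS and 7814 CPM in APOE4 NaCl, and 8933 CPM in APOE3 LPS and 7648 CPM in APOE3 NaCl. Mt2 had 3882 CPM in APOE4 LPS and 1154 CPM in APOE4 NaCl, and 1230 CPM in APOE3 LPS and 1434 CPM in APOE3 NaCl. APOE4 LPS was thus the high library, and the 3 others lay close together. Mt2 was 3.36-fold higher with LPS in APOE4 (3.12 to 3.63), and its ratio was 0.858 in APOE3 (0.796 to 0.924), a difference of 1.97 (1.82 to 2.12). With at least 6 markers the Mt2 ratios were 3.23 in APOE4 and 0.845 in APOE3, and without barcodes holding markers of another class 2.25 and 0.901.

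Other stress genes followed Mt2. Cebpd, a transcription factor of the acute-phase response, had 225 CPM in APOE4 LPS and 6.26 CPM in APOE4 NaCl, and 36.9 CPM in APOE3 LPS and 11.3 CPM in APOE3 NaCl, a difference of 3.34 (1.83 to 4.85). Hspb1, a small heat-shock protein, had 385 CPM in APOE4 LPS and 30.1 CPM in APOE4 NaCl, and 109 CPM in APOE3 LPS and 48.6 CPM in APOE3 NaCl, a difference of 2.49 (1.74 to 3.24). Slc39a14, a zinc and iron importer of the acute-phase response, had 89.6 CPM in APOE4 LPS and 6.26 CPM in APOE4 NaCl, and 12.7 CPM in APOE3 LPS and 11.3 CPM in APOE3 NaCl, a difference of 3.49 (1.83 to 5.16). In each, APOE4 LPS held the highest level. Ependymal Cebpd and Hspb1 were 27.5% and 29.8% of the highest other class in APOE4 LPS, Slc39a14 64.7% and Mt2 101%. The hyaluronan receptor Cd44 had 193 CPM in APOE4 LPS and 36.3 CPM in APOE4 NaCl, and 30.6 CPM in APOE3 LPS and 23.5 CPM in APOE3 NaCl. Without barcodes holding markers of another class the APOE4 LPS/NaCl ratios were 8.12 instead of 12.8 for Hspb1 and 2.67 instead of 5.32 for Cd44. The adhesion molecule Chl1 had 108 and 18.8 CPM in APOE4 LPS and NaCl, and 9.49 and 18.6 CPM in APOE3 LPS and NaCl, with 30.3% of the APOE4 LPS UMIs in 1 barcode. For Serpina3n the difference was -0.15 (-1.40 to 1.09), so that its interval includes 0 and reaches past 2-fold toward APOE3 and toward APOE4.

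In the other direction, Col6a5, a collagen VI chain at 0.112 to 1.85 CPM in the highest other class, had 58.3 CPM in APOE4 LPS and 139 CPM in APOE4 NaCl, and 161 CPM in APOE3 LPS and 106 CPM in APOE3 NaCl. The difference was -1.84 (-2.46 to -1.23). Pde10a, a cyclic nucleotide phosphodiesterase, had 19.9 CPM in APOE4 LPS and 52.6 CPM in APOE4 NaCl, and 65.4 CPM in APOE3 LPS and 26.7 CPM in APOE3 NaCl, a difference of -2.62 (-3.67 to -1.57). APOE4 LPS was the lowest of the 4 libraries for both genes.

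The third comparison was APOE4 against APOE3 at the same treatment. With LPS, of 8044 measured genes, 242 lay past 2-fold on the high side in APOE4 (3.01%) and 246 lower (3.06%), and with NaCl 131 of 9217 were higher (1.42%) and 201 lower (2.18%). In both treatments 30 genes were higher, 16.6% of 181 with LPS and 39.0% of 77 with NaCl, and 11 were lower, 5.05% of 218 with LPS and 12.4% of 89 with NaCl. Opposite to this, 1 gene was higher with NaCl and lower with LPS, and 6 were lower with NaCl and higher with LPS. These counts cover 7845 genes measured in both treatments. Pearson's r of the log2 ratios was 0.28 across 2825 genes with at least 50 UMIs in each library. Apoe gave no difference: mouse-assigned Apoe had 56.9 CPM in APOE4 LPS and 57.0 CPM in APOE3 LPS, and 57.6 CPM in APOE4 NaCl and 57.5 CPM in APOE3 NaCl. The animals carry human APOE and the reads were mapped to a mouse genome, so these counts cover only sequence assigned to the mouse gene.

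The gene with the most UMIs among the 11 that were lower in APOE4 at both treatments was Scn7a, which encodes a sodium-sensing channel protein and is also in the tanycyte list. It had 114 CPM in APOE4 LPS and 323 CPM in APOE3 LPS, and 82.7 CPM in APOE4 NaCl and 228 CPM in APOE3 NaCl. Both APOE4 libraries lay below both APOE3 libraries, 2.84-fold lower with LPS (2.21 to 3.68) and 2.76-fold lower with NaCl (2.10 to 3.67). Thinned, it had a UMI in 25.9% of barcodes in APOE4 LPS and 45.3% in APOE3 LPS, and in 11.4% in APOE4 NaCl and 32.4% in APOE3 NaCl, while astrocytes and microglia had shares of 0.610% or less. With at least 6 markers the ratios of APOE4 to APOE3 were 0.342 with LPS and 0.364 with NaCl, and without barcodes holding markers of another class 0.409 and 0.273. Each level comes from 1 pool of 3 mice, so allele and pool cannot be told apart. The unnamed gene Gm47283 had 15.6 CPM in APOE4 LPS and 61.2 CPM in APOE3 LPS, and 6.26 CPM in APOE4 NaCl and 65.5 CPM in APOE3 NaCl, 3.91-fold (2.03 to 8.26) and 10.5-fold lower (4.30 to 33.1).

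Interferon-stimulated genes were lower in APOE4 with NaCl. Of 18 measured, 8 were at least 2-fold lower and 0 higher, against 2.18% of all measured genes lower and 1.42% higher. Their median was -0.85, against a median of all genes of -0.05. With at least 6 markers 8 of 17 were lower. Without barcodes holding markers of another class 6 of 9 were lower, with a median of -1.44, where 5.29% of all measured genes were lower. Ifit1, an RNA-binding antiviral protein, had 8.77 CPM in APOE4 NaCl and 53.4 CPM in APOE3 NaCl, 6.09-fold lower (2.80 to 15.7). Ifit3 had 27.6 CPM in APOE4 NaCl and 79.3 CPM in APOE3 NaCl, 2.88-fold lower (1.8 to 4.80), and Isg15, a ubiquitin-like modifier, 2.51 CPM and 24.3 CPM. Single barcodes held 42.4% of the APOE3 NaCl UMIs of Ifit1, 10.2% of those of Ifit3 and 30% of those of Isg15. With LPS 2 of 16 were lower and 0 higher, against 3.06% of all measured genes lower. Among the 2 was Ifit3, with 24.2 CPM in APOE4 LPS and 60.1 CPM in APOE3 LPS, 2.49-fold lower (1.43 to 4.56). Without barcodes holding markers of another class 1 of 4 was lower with LPS and 1 higher.

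Markers of oligodendrocytes and erythrocytes were higher in APOE4. The 10 oligodendrocyte markers summed to 3243 CPM in APOE4 NaCl and 1275 CPM in APOE3 NaCl, and to 1814 CPM in APOE4 LPS and 1226 CPM in APOE3 LPS. With NaCl 9 of 10 were at least 2-fold higher, against 1.42% of all measured genes, and with LPS 2 of 9, against 3.01%. Without barcodes holding markers of another class 0 of 3 were higher with NaCl and 1 of 2 with LPS. In APOE4 NaCl 87.1% of the oligodendrocyte marker UMIs lay in the top 10% of ependymal barcodes. The part of oligodendrocyte RNA in the genes higher in APOE4 was not tested. The erythrocyte markers summed to 337 CPM in APOE4 NaCl and 31.6 CPM in APOE3 NaCl, and to 445 CPM in APOE4 LPS and 11.6 CPM in APOE3 LPS. In APOE4 NaCl 1 barcode held 92.4% of the 119 UMIs of Hbb-bs and 94.5% of the 91 UMIs of Hba-a1, globin genes of red blood cells. With LPS the ciliary lists lay below zero in APOE4 against APOE3, with medians of -0.50 for dyneins, -0.45 for radial spoke and central pair genes, -0.45 for intraflagellar transport and -0.25 for tektins, and 0 genes past 2-fold in any, against 6.07% of all measured genes either way. The median of all genes was -0.06, and with at least 6 markers the same medians were -0.39, -0.35, -0.37 and -0.20. Without barcodes holding markers of another class they were -0.36, -0.20, -0.30 and -0.20, beside a median of all genes of -0.15. There 1 of 19 transport genes was 2-fold lower, against 7.55% of all measured genes. The microglial, astrocyte and choroid plexus sums were highest in APOE4 LPS, and their part in these medians was not tested.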

How the data were processed

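Single cells of glia-enriched brain suspensions from 4 pools of 3 mice were sequenced with 10x Genomics 3' chemistry, per the labels. The authors deposited raw UMI counts per gene and barcode, made with Cell Ranger 7.0 on mm10, per the submitters' processing notes (7.0.1 per the file headers). UMI counts of the ependymal barcodes were summed per library (703316 to 1235778 UMIs) and scaled to CPM. A gene counted as measured where either library held 20 UMIs or more. Counts of genes used a 2-fold limit on log2(CPM + 1), since with 1 library per group nothing could be tested.

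Ratio intervals are exact conditional binomial intervals (95%). Other classes were barcodes with at least 4 of 6 class markers. Genes were named by the interval bound nearest to 1, among measured genes with at least 20% of the highest other class, leaving out the genes of the rule and mitochondrial genes: the first 12 higher and 12 lower with LPS, and the first 8 each way otherwise. Members of the gene lists, Apoe and the 12 most selective genes were added. Members and lists were chosen with earlier results of these data known. Thinning to 2000 UMIs used seed 1. Promoters came from RefSeq (GRCm38.p6). Alternatives covered the marker number, limits, doublets (Scrublet), thinning, scaling, pseudocount and count minimum. Summing and counting were tested on simulated data. Python 3.11.15, numpy 2.4.6, scipy 1.17.1, pandas 2.3.3, scanpy 1.11.5, matplotlib 3.10.9, R 4.3.3 and edgeR 4.0.16 (TMM scaling) were used.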

Additional observations from a re-analysis of the deposited data

Results flagged for a closer look

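The log2 LPS/NaCl ratio of 2 genes named above or by the naming rule had opposite signs in the alleles, past 2-fold each way. For Galnt17, a glycosyltransferase gene, the log2 ratio was 2.76 in APOE4 and -2.77 in APOE3, a difference of 5.53. It had 31.3 CPM in APOE4 LPS and 3.76 CPM in APOE4 NaCl, and 2.11 CPM in APOE3 LPS and 20.2 CPM in APOE3 NaCl, and 1 barcode held 77.3% of the APOE4 LPS UMIs and 84.0% of the APOE3 NaCl UMIs. With at least 6 markers the difference was 1.11. For Pde10a the log2 ratio was -1.36 in APOE4 and 1.26 in APOE3, a difference of -2.62, and 1 barcode held 21.4% of the APOE4 LPS UMIs and 6.45% of the APOE3 LPS UMIs. With at least 6 markers the difference was -2.57. With 1 library per group neither difference was tested. No group had the 4 samples needed to look for outlying samples.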

How the results depend on the processing

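Values for shares and counts run over APOE4 LPS, APOE4 NaCl, APOE3 LPS and APOE3 NaCl, and, for genes past 2-fold, over LPS/NaCl in APOE4, LPS/NaCl in APOE3, APOE4/APOE3 with LPS and APOE4/APOE3 with NaCl. The ependymal share was 0.264%, 0.436%, 0.531% and 0.646% with all 7 markers, 0.247%, 0.428%, 0.279% and 0.722% without barcodes holding markers of another class, and 1.01%, 1.06%, 1.08% and 1.54% thinned. It was also 0.924%, 0.544% and 0.407% in APOE4 LPS with 3, 5 and 6 markers, 0.854% in APOE3 NaCl with 6, and 0.588% in APOE3 LPS with a 10% mitochondrial limit. Requiring 6 or all 7 markers, and leaving out each gene's highest barcode, were chosen after seeing the data.

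Counts of genes past 2-fold moved with the filters. Higher and lower counts were 185 and 177, 79 and 105, 136 and 79, and 58 and 42 with a pseudocount of 10 CPM, and 277 and 163 for the difference of the alleles. They were 122 and 103, 62 and 95, 100 and 79, 47 and 43, and 205 and 130 with a minimum of 50 UMIs, and 2317 and 2824, 1614 and 1829, 2403 and 2479, 1668 and 1416, and 3138 and 3018 with none. Thinned, they were 99 and 83, 74 and 182, 64 and 134, 26 higher for APOE4/APOE3 with NaCl, and 366 and 223 for the difference. Without barcodes holding markers of another class they were 73 and 166 in APOE4 LPS/NaCl, 77 higher in APOE3 LPS/NaCl, 67 higher in APOE4/APOE3 with LPS, and 35 and 305 with NaCl. With all 7 markers 178, 116 and 218 were higher in APOE4 LPS/NaCl, APOE4/APOE3 with LPS and APOE4/APOE3 with NaCl. Removing called doublets gave 434 and 242 in APOE4 LPS/NaCl, where no doublet was called in APOE4 LPS, and 56 higher in APOE4/APOE3 with NaCl. Leaving out each gene's highest barcode gave 79 there. A stricter minimum or fewer barcodes leave fewer genes measured; otherwise the cause was not tested.

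Signs reversed in few cases. In APOE3 LPS/NaCl the tanycyte median was 0.048 with 5 markers and 0.16 with 6, 6330403K07Rik 0.019 with 5 and 0.016 with all 7, and Col25a1 0.16 with all 7 and 1.83 without barcodes holding markers of another class. Without those barcodes, Prr16 was 2.87 in APOE4 LPS/NaCl (0.10 thinned), the Galnt17 difference was -0.91, and in APOE4/APOE3 with NaCl Col25a1 was 0.79, 9330111N05Rik -0.41, Vps26c -0.21 and Pcdh15 -2.87 (-1.02 thinned). Dlk1 was 0.80 there with 3 markers, and the microglial median in APOE4/APOE3 with LPS was -0.19 with all 7 and -0.25 with at least 2000 UMIs. The cause was not tested. Over all alternatives 943 log2 ratios of named genes stayed close, 140 moved and 12 reversed. No paired analysis was possible because each group is 1 library and no replicate could be left out.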

Other observations

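Genes of oxidative phosphorylation stayed within 2-fold in ependymal barcodes, and a few genes of other metabolic lists did not. Of 76 measured nuclear genes of oxidative phosphorylation, the respiratory chain of mitochondria, 0 were past 2-fold with LPS in either allele, with medians of -0.20 in APOE4 and -0.14 in APOE3, beside -0.09 for all genes in each. Of the glycolysis list 2 of 20 measured genes were at least 2-fold higher and 0 lower in each allele, with medians of -0.05 in APOE4 and -0.24 in APOE3, where 3.56% of all measured genes in APOE4 and 1.45% in APOE3 were higher. Of the cholesterol synthesis list 1 of 11 was higher and 0 lower in APOE4, with a median of -0.11, and 0 of 13 were higher and 2 lower in APOE3, with a median of -0.33, where 3.59% of all measured genes were lower. Of the heat-shock list 2 of 19 were higher in APOE4 and 3 of 19 in APOE3, with 0 lower.

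Some genes stood apart in 1 library. Tgm1, a transglutaminase of epithelial barriers, had 45 UMIs in APOE4 LPS, 1 in APOE4 NaCl, 0 in APOE3 LPS and 1 in APOE3 NaCl, and 24.4% of the first lay in 1 barcode. The long noncoding RNA Neat1 had 947 CPM in APOE4 LPS and 94.0 CPM in APOE4 NaCl, and 262 CPM in APOE3 LPS and 70.4 CPM in APOE3 NaCl. Etnppl, a phospholipid-metabolising enzyme of astrocytes, had 61.1 CPM in APOE4 LPS and 183 CPM in APOE3 LPS, and 63.9 CPM in APOE4 NaCl and 60.7 CPM in APOE3 NaCl. Cdh7, a cadherin, had 15.6 CPM in APOE4 LPS, against 52.6, 64.3 and 56.6 CPM in APOE4 NaCl, APOE3 LPS and APOE3 NaCl. Cdh12 and D5Ertd615e, higher in APOE3 LPS by the naming rule, had 81.6% and 60% of their APOE3 LPS UMIs in 1 barcode.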
